A study of Homo sapiens with 24 samples.

Results

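A375 is a human melanoma cell line, and this account covers its response to cold atmospheric plasma, an ionised gas that carries reactive oxygen and nitrogen species (the word does not mean blood plasma here). Its members were taken by cell line and treatment from the labels. They are 6 of the series' 24 RNA-seq libraries, 3 labelled as plasma-treated (A375-CAP) and 3 as untreated (A375-Control), each with counts for 61533 genes. In the plasma-treated group, wild-type A375 cells seeded overnight in 6-well plates received 60 s from the Piezo-CAP source and were harvested 24 h later. The untreated group received 0 s and was otherwise handled alike, with the same DMEM medium containing serum and antibiotics. The other 18 libraries hold the same comparison in Cal27, Fadu and Hth83 cells, 3 against 3 in each line, and are used here only to ask where A375 differed. Whether replicate libraries stem from separate cultures is not said in the labels, so each p-value reflects the spread among 3 libraries a group, and that spread may be technical. 1 line at 1 dose and 1 time stands for the tumour type, and a transcript that is lower in a bulk library can reflect fewer cells holding it or less of it per cell, which cannot be told apart.

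Reactive species that reach a cell oxidise thiols and unfold proteins, and several conserved programmes answer. Heat shock factor HSF1 drives cytosolic chaperones when unfolded protein accumulates in the cytosol, the unfolded protein response drives chaperones of the endoplasmic reticulum (ER), and NRF2 drives genes of glutathione and thioredoxin metabolism once its inhibitor KEAP1 is oxidised. The integrated stress response acts differently: kinases that sense amino acid shortage, ER stress, viral RNA or haem shortage phosphorylate eIF2, general translation falls, and the factor ATF4 is translated and switches on genes of amino acid supply.

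The labels class A375 with the other lines as a head and neck cancer cell, whereas A375 is known as a cutaneous melanoma line, so its identity was checked first. SOX10, the lineage factor of melanocytes, had 983, 997 and 968 CPM (counts scaled to 1e6 per library, with TMM library sizes) in plasma-treated libraries, against 1108, 1125 and 1128 CPM in untreated libraries. All 3 plasma-treated libraries were lower, by 0.19 ± 0.03 on the log2 scale (± standard error, SE; adjusted p = 5.37e-06, the quasi-likelihood test of edgeR, adjusted over all genes tested by the Benjamini-Hochberg method, as for every adjusted p below unless another tool is named). MITF, the master regulator of pigment genes, had 73.4, 79.1 and 80.1 CPM against 69.8, 76.9 and 77 CPM, overlapping groups that did not pass the test (adjusted p = 0.324). The defining pigment genes were at or near 0: PMEL and MLANA lay between 0.846 and 1.46 CPM in all 6 libraries, and the tyrosinase gene TYR between 0 and 0.165 CPM. Other genes of the 17 pigment and melanosome markers were expressed, 5 of them at 10 CPM or more, and the 17 summed to 323 to 330 CPM after plasma and 290 to 295 CPM untreated. GPNMB, a melanosome glycoprotein that other cells also make, had 164, 162 and 165 CPM against 145, 151 and 149 CPM. The receptor tyrosine kinase AXL, a mark of dedifferentiated melanoma, had 176, 172 and 180 CPM against 208, 199 and 210 CPM. SOX10 was thus high, and PMEL, MLANA and TYR low, in both groups.

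The summed level of 23 melanocyte markers was 1997 to 2041 CPM in plasma-treated libraries and 2264 to 2298 CPM in untreated libraries. Marker lists of other cell types were far lower in both groups. Of 19 squamous epithelium markers 9 had enough counts to test, 5 rose and 3 fell, and their summed level was 206 to 209 CPM in plasma-treated libraries and 189 to 192 CPM in untreated libraries, over 100 CPM of it from PERP, a desmosome protein and p53 target (119, 118 and 116 CPM against 104, 104 and 104 CPM). TP63, the defining factor of squamous cells, had 0 to 0.0941 CPM against 0 to 0.0393 CPM, and KRT5 and CDH1 stayed at most 0.274 CPM. The members that rose included the keratins KRT14 (5.9, 5.89 and 4.71 CPM against 1.16, 1.71 and 1.4 CPM; log2 fold change 1.96 ± 0.19, adjusted p = 4.08e-10) and KRT6B (log2 fold change 1.36 ± 0.15). Summed levels reached 21.8 to 25.3 CPM against 18.5 to 21 CPM for 13 thyroid follicle markers, with thyroglobulin (TG) at 0 counts in every library. For 13 leukocyte markers they were 7.95 to 10.9 CPM against 7.35 to 10.1 CPM, for 9 fibroblast markers 29.4 to 35.6 CPM against 38.7 to 40.5 CPM, and for 7 endothelial markers 27.4 to 34.4 CPM against 23.9 to 27.8 CPM. At 0 counts in all libraries of a group were 2 squamous markers after plasma and 1 untreated, 6 and 3 thyroid markers, 3 and 4 leukocyte markers, and 0 and 1 endothelial markers. The part of such transcripts in the changes below was not tested.

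Total counts in units of 1e6 were 30.3, 37.1 and 43.6 in the plasma-treated libraries and 49.5, 32.0 and 29.3 in the untreated libraries, and 28079 to 30823 genes had a count in each. All 37 mitochondrially encoded genes were at 0 counts in every library, so the share of mitochondrial reads is unknown. In a principal component analysis the first component (59.2% of variance) separated the groups, and the second (12%) set plasma replicate 1 (score 32.06) apart from plasma replicates 2 and 3 (-23.1 and -17.3), while untreated libraries scored 1.472 to 4.165. Of 19604 genes with enough counts to test, 9900 (50.5%) passed an adjusted p of 0.05, 5044 higher (25.7%) and 4856 lower (24.8%) after plasma, and 11353 (57.9%) had plasma-treated and untreated CPM that did not overlap. Without plasma replicate 1 the test called 9271 genes, 8859 of them shared. Most changes were small, with a median size of 0.42 on the log2 scale among called genes; 1385 genes changed by at least 2-fold, 304 higher and 1081 lower. That number was 1341 without plasma replicate 1, 792 with a minimum of 1 CPM in 3 libraries, 749 in limma on log2(TPM + 1) and 612 in the same without a filter. Protein-coding genes made up 178 of those higher and 424 of those lower. Among all 13876 protein-coding genes tested, 33.7% were called higher and 24.3% lower. The split between directions depends on centring: 50.9% of called genes were higher with TMM scaling, 39.8% with library size alone and 41% in limma on log2(TPM + 1), called the TPM scale here. Near-identical copies, such as HSPA1A and HSPA1B, may trade reads, and whether counting used the read strand is not stated, so values of antisense transcripts are uncertain.

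**Figure D1:**
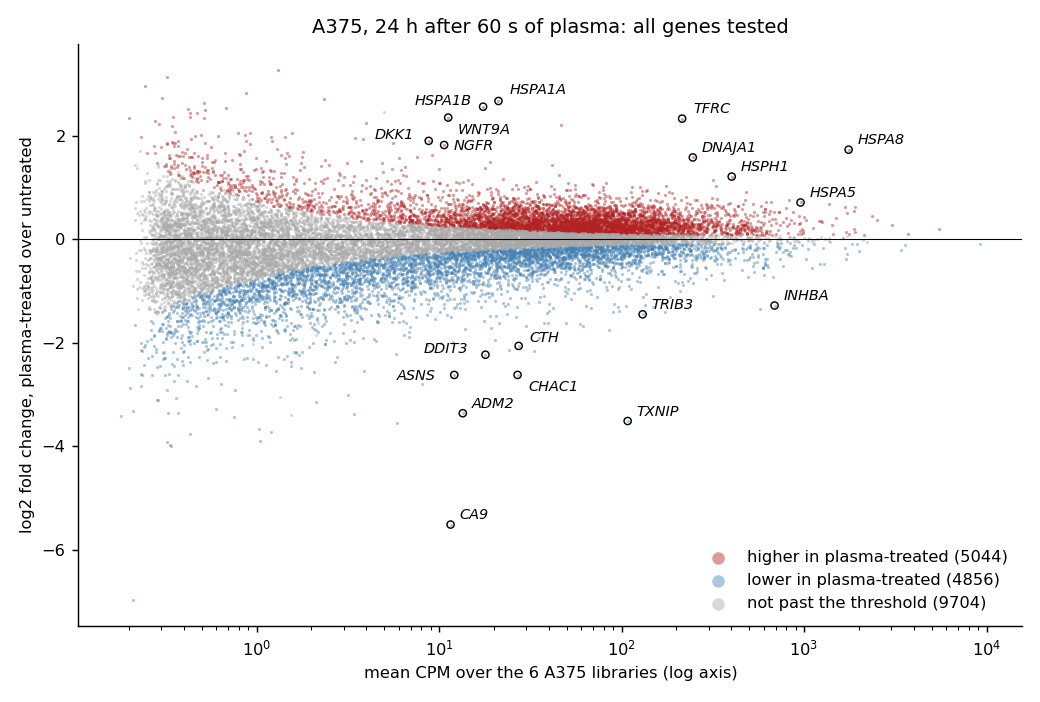
Each point is 1 of the 19604 genes tested in A375, with the mean CPM over the 6 libraries on a log axis and the log2 fold change of plasma-treated over untreated on the other axis; red points were higher (5044), blue points lower (4856) and grey points did not pass an adjusted p of 0.05. HSPA8, at a high level, sits at 1.73, and CA9 lies lowest among the circled genes at -5.51.

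Chaperones of the cytosol gave some of the largest rises. Of 42 heat shock response genes tested 33 rose and 2 fell, with a median log2 fold change of 0.50 beside -0.02 over all genes, and without plasma replicate 1 the counts were 32 and 1. HSPA1A, the stress-inducible HSP70, had 42.2, 32.5 and 34.9 CPM in plasma-treated libraries, against 4.82, 5.8 and 6.8 CPM in untreated libraries. Every plasma-treated library was above every untreated one, a 6.38-fold rise (log2 fold change 2.67 ± 0.11, adjusted p = 1.73e-15). Its near-identical neighbour HSPA1B moved with it (30.7, 29.7 and 29 CPM against 4.5, 6.16 and 4.57 CPM; log2 fold change 2.56 ± 0.10). HSPA8, the constitutive HSP70 of the cytosol, had 2975, 2454 and 2668 CPM against 793, 865 and 776 CPM. Its groups were far apart, at a log2 fold change of 1.73 ± 0.08 (adjusted p = 9.29e-06). Per length, HSPA8 averaged 6293 ± 523 TPM after plasma and 2018 ± 140 TPM untreated (SD, n = 3 each), while HSPA1A averaged 203 ± 25.3 TPM and 34.5 ± 5.76 TPM, so the larger fold of the pair belonged to the lower level.

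The partners of HSP70 rose with it. DNAJA1, an HSP40 that delivers clients to HSP70, had 404, 339 and 363 CPM against 122, 128 and 119 CPM, with no overlap (log2 fold change 1.58 ± 0.05, adjusted p = 5.84e-15). HSPH1, the HSP110 exchange factor that releases ADP from HSP70, had 589, 531 and 561 CPM against 239, 253 and 236 CPM (1.21 ± 0.04, adjusted p = 7.82e-21). DNAJB1, an HSP40 also known for feedback on HSF1, rose by 0.89 ± 0.04 and the co-chaperone BAG3, which couples HSP70 to autophagy, by 0.65 ± 0.04. All 12 genes for HSP90 and its co-chaperones rose, with a median of 0.54. The stress-inducible HSP90AA1 had 2321, 2212 and 2342 CPM against 1461, 1533 and 1480 CPM (0.62 ± 0.03), and HSP90AB1 rose by 0.37 ± 0.03. In mitochondria the chaperonin HSPD1 rose by 0.53 ± 0.03 and its lid HSPE1 by 0.67 ± 0.08. The members that fell were HSPA13, an HSP70 of microsomes (by 0.21 ± 0.05), and the small heat shock protein HSPB1, whose fall by 0.10 (adjusted p = 0.043) was lost in 8 of 16 other settings. HSPA6, a strictly inducible HSP70, had 2.61, 3.26 and 3.53 CPM against 2.09, 2.17 and 3.9 CPM and did not pass the test. The factor HSF1 itself rose by only 0.15 ± 0.05, a call that was lost in 6 other settings.

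**Figure D2:**
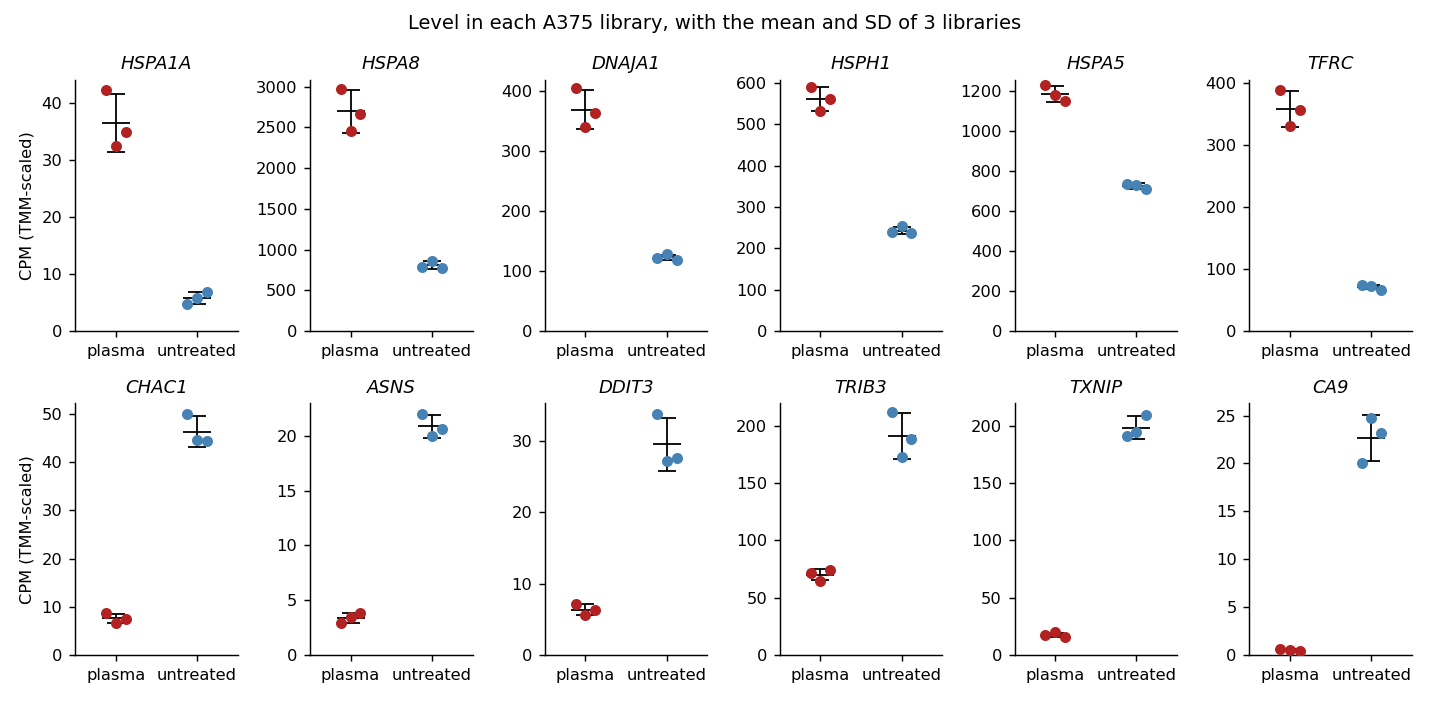
CPM of 12 genes in each A375 library, plasma-treated in red and untreated in blue, with the mean and SD of 3 libraries; every axis starts at 0. In all 12 panels the groups do not overlap, as in 57.9% of all genes tested. The rule that picked the genes with the largest changes required this. HSPA1A had 32.5 to 42.2 CPM after plasma and 4.82 to 6.8 CPM untreated. CA9 had 0.424 to 0.617 CPM after plasma and 20 to 24.7 CPM untreated.

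The windows below are shown because HSF1 binds inverted GAA repeats and the chaperone genes rose together. They were read from RefSeq promoters (GRCh38.p14, 250 bases before to 50 bases after a gene start). Capitals mark the core GAANNTTC or its other phase TTCNNGAA, searched on both strands; each core is its own reverse complement and overlapping matches run together.
HSPA1A (chr6:31815411-31815470, plus strand): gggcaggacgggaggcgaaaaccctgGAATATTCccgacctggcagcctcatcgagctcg
HSPA1B (chr6:31827607-31827666, plus strand): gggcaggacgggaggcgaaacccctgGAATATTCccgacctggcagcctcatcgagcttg
DNAJB1 (chr19:14518411-14518500, minus strand): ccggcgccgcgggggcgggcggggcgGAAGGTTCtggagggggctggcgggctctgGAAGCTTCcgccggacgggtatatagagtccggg
HSPA8 (chr11:123062153-123062386, minus strand): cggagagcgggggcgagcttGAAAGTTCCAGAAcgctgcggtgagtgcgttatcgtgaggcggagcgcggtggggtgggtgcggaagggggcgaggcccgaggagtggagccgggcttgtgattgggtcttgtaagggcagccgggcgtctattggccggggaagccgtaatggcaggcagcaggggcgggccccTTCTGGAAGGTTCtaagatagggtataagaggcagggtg
The first core lay 106 bases before the start of HSPA1A, 105 before HSPA1B, 77 before the DNAJB1 start shown and 230 before HSPA8, which held 4 overlapping or separate matches. Among 37 heat shock response genes with a RefSeq promoter, 19 (51.4%) held the core in at least 1 promoter, against 16.2% of all 27305 genes. Among members that rose it was 16 of 29, among those that fell 1 of 2 and among those that did not pass 2 of 6. HSPH1 had no match in the window. A match describes the letters of these windows, and binding was not measured.

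Folding and degradation complexes moved as units. All 8 subunits of the TRiC chaperonin, which folds actin and tubulin, rose, between 0.21 and 0.60 on the log2 scale (median 0.40), and all 8 did so in every setting tried. Of 36 proteasome genes 32 rose and 0 fell in edgeR's test and in DESeq2 (1 was lower at an unadjusted p of 0.05 and 1 with library size alone), with a median of 0.40. Every one of the 17 genes of the 19S cap, which recognises ubiquitinated protein, was called higher. PSMD12 of the cap had 190, 174 and 185 CPM against 120, 116 and 115 CPM, groups that did not overlap (0.64 ± 0.04, adjusted p = 4.2e-14). The 20S core followed with 13 of 14, and the 5 immunoproteasome and activator genes gave 2: the interferon-inducible PSMB9 had 10.6, 10.6 and 9.91 CPM against 11.9, 11.9 and 11.8 CPM and did not pass the test.

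The integrated stress response moved the other way. Of 30 ATF4-linked genes tested 25 fell and 1 rose, with a median of -0.90, and 25 or 26 fell in every setting. ADM2, a secreted peptide of the adrenomedullin family, had 2.78, 2.14 and 2.33 CPM in plasma-treated libraries, against 27, 23.5 and 23.2 CPM in untreated libraries (log2 fold change -3.36 ± 0.11, adjusted p = 3.05e-20). CHAC1, which degrades glutathione, had 8.61, 6.65 and 7.46 CPM against 50, 44.5 and 44.4 CPM. No plasma-treated library reached the untreated range (-2.62 ± 0.08, adjusted p = 8.46e-21). ASNS, which makes asparagine, had 2.88, 3.45 and 3.79 CPM against 22, 20 and 20.6 CPM (-2.62 ± 0.11). CTH, which makes cysteine from cystathionine, had 9.06, 10.7 and 11.8 CPM against 49.2, 40.9 and 42.2 CPM (-2.06 ± 0.09). All 4 were among the 12 largest falls of called genes with a symbol, at least 10 CPM in 1 group and non-overlapping groups.

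Among the transcription factors of the pathway, DDIT3, which encodes CHOP, had 7.17, 5.59 and 6.31 CPM against 33.9, 27.2 and 27.6 CPM (-2.23 ± 0.10, adjusted p = 2.88e-17). ATF3, a stress factor, had 3.67, 3.64 and 4.87 CPM against 17.8, 15.7 and 15.5 CPM, and CEBPG, a partner of ATF4, fell by 1.29 ± 0.06. ATF4 mRNA had 332, 324 and 355 CPM against 450, 439 and 443 CPM, lower in all 3 plasma-treated libraries by 0.40 ± 0.04; its mRNA does not report its regulated translation. ATF5 was the exception, with 17.5, 11.8 and 13.7 CPM against 5.9, 4.76 and 5.97 CPM (1.36 ± 0.13, adjusted p = 4e-10). The feedback gene TRIB3, a pseudokinase that binds ATF4 and AKT, had 71.8, 64.5 and 73.7 CPM against 212, 173 and 188 CPM (-1.45 ± 0.08). SESN2 and DDIT4, which restrain mTORC1, fell by 1.42 and 1.10. The kinase genes EIF2AK3 (PERK) and EIF2AK4 (GCN2) did not pass the test, at 24.4, 26.1 and 24.6 CPM against 24.2, 23.5 and 23.8 CPM for EIF2AK3. CBS, which makes cystathionine, had 4.63, 8.85 and 5.48 CPM after plasma against 22.4, 9.09 and 9.34 CPM untreated and did not pass either (adjusted p = 0.153).

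Enzymes of serine, one-carbon and proline synthesis fell by less. MTHFD2 fell by 0.83 ± 0.05, PYCR1 by 0.76 ± 0.06, PHGDH by 0.66 ± 0.04 and PSAT1 by 0.55 ± 0.06. Of 12 amino acid transporters 8 fell and 2 rose (median -0.35). SLC7A11, the cystine carrier that is a target of both ATF4 and NRF2, had 134, 128 and 155 CPM against 300, 267 and 267 CPM, a ratio of 0.501 (adjusted p = 7.01e-06), and SLC7A5, the leucine carrier, had 650, 521 and 599 CPM against 655, 601 and 591 CPM and did not pass the test. Of 20 cytosolic aminoacyl-tRNA synthetases 11 fell and 5 rose, 3 on the TPM scale (median -0.28): seryl-tRNA synthetase SARS1 fell by 0.80 ± 0.04 and glycyl-tRNA synthetase GARS1 by 0.65 ± 0.04, while histidyl-tRNA synthetase HARS1 rose by 0.42 ± 0.04. Of the 17 mitochondrial synthetases 9 rose and 1 fell, 3 and 1 on the TPM scale.

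ATF4 binds composite C/EBP-ATF elements, of which the core TGATGNAA was searched on both strands. The windows of CHAC1, ASNS, ATF3 and CEBPG are shown because these genes fell and their promoters hold it; capitals mark the core, which lies on the other strand in CHAC1.
CHAC1 (chr15:40953236-40953295, plus strand): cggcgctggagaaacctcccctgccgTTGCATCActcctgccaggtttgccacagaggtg
ASNS (chr7:97872443-97872502, minus strand): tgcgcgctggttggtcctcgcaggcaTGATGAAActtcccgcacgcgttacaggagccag
ATF3 (chr1:212565190-212565249, plus strand): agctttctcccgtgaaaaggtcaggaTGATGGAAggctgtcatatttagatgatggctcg
CEBPG (chr19:33374045-33374104, plus strand): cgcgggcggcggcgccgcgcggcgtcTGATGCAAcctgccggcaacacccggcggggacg
The core lay 209 bases before the gene start in CHAC1, and 68, 191 and 42 before the start shown in ASNS, ATF3 and CEBPG. ASNS, ATF3 and CEBPG each have another RefSeq start, whose window held no match. JDP2 also fell and held the core 16 bases before a RefSeq start, but its window is not shown. Among 26 ATF4-linked genes with a RefSeq promoter, 6 (23.1%) held it, against 4.46% of all 27305 genes, and 5 of the 20 members that fell did. DDIT3 and TRIB3 had no match in their windows.

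ER chaperones rose, unlike the ATF4 arm. Of 29 ER stress genes tested 19 rose and 6 fell (median 0.23), and 14 of 17 chaperone and folding genes rose. HSPA5, the ER lumen HSP70 (BiP), had 1232, 1182 and 1152 CPM in plasma-treated libraries, against 735, 732 and 709 CPM in untreated libraries. The groups were well apart, at 0.71 ± 0.03 on the log2 scale (adjusted p = 4.42e-17). SDF2L1, a BiP cofactor, rose by 1.14 ± 0.10, MANF, a secreted ER stress protein, by 0.74 ± 0.05, and the calcium-binding chaperone CALR by 0.61 ± 0.03. The sensor and factor genes did not follow: ERN1 (IRE1) had 11.4, 11.6 and 12.5 CPM against 26.4, 27.2 and 23.7 CPM (-1.12 ± 0.08, adjusted p = 1.17e-12), and XBP1 fell by 0.43 ± 0.05. HERPUD1, of ER-associated degradation, fell by 0.52 ± 0.05. TGACGTGG, the only unfolded protein response element searched, was in 1 of 27 list genes (HYOU1) and in 0.927% of all genes in the promoter table. Other elements of ER stress genes were not searched, so a window without TGACGTGG may hold those.

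The direction of the ER genes set A375 apart. HSPA5 changed by -0.62, -1.04 and -2.88 in Cal27, Fadu and Hth83, all called lower, and the A375 change minus the mean of the other 3 lines was 2.20 ± 0.04 (adjusted p = 1.61e-39, 24 libraries). The same difference was called positive for 26 of 30 ER stress genes and negative for 2. Over all genes, 7172 of 23642 (30.3%) passed that test. The list median was 0.23 in A375 and -0.18, -0.52 and -1.33 in Cal27, Fadu and Hth83. For the heat shock list the medians were 0.50 in A375 and -0.03, 0.06 and 0.47, and the difference was positive for 27 of 42 genes and negative for 1. The ATF4-linked list had a negative median in all lines, at -0.90 in A375 and -0.29, -0.66 and -1.39, with the difference positive for 7 of 32 genes and negative for 11. CHAC1 and DDIT3 had differences of 0.03 and -0.02 that did not pass.

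**Figure D3:**
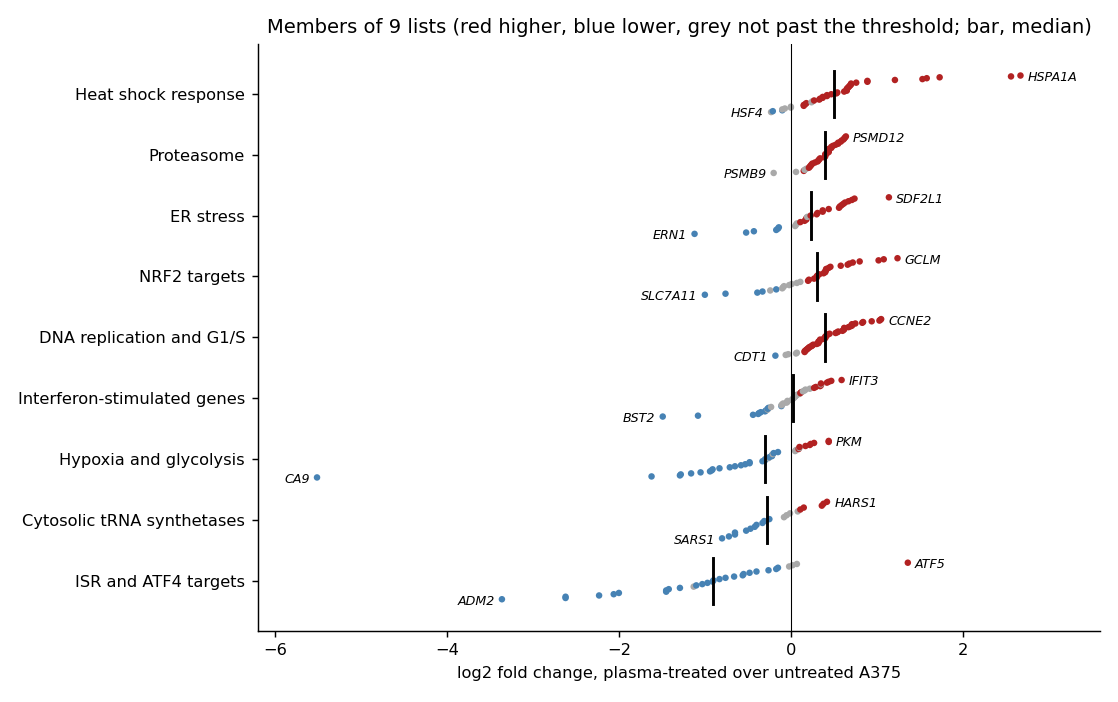
Log2 fold changes (plasma-treated over untreated A375) of the tested members of 9 lists, coloured red where higher, blue where lower and grey where not past an adjusted p of 0.05; the bar is the list median and the named genes are the extremes. Heat shock and proteasome genes lie mostly right of 0 (medians 0.50 and 0.40), and ATF4-linked genes mostly left (median -0.90) with ATF5 apart at 1.36.

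Most hypoxia-linked genes and glucose-sensing arrestins fell. CA9, a carbonic anhydrase of the cell surface and a classic HIF1 target, had 0.617, 0.466 and 0.424 CPM in plasma-treated libraries, against 20, 24.7 and 23.2 CPM in untreated libraries. It was nearly gone in all 3 plasma-treated libraries, and -5.51 ± 0.16 (adjusted p = 3.95e-22) was the largest fall among called genes with a symbol and at least 10 CPM in 1 group. MIR210HG, the host transcript of another HIF target, had 0.377, 1.18 and 1.13 CPM against 10.6, 12.6 and 9.47 CPM (-3.54 ± 0.21). Of 37 hypoxia and glycolysis genes 24 fell and 8 rose (23 and 5 on the TPM scale), with a median of -0.30, and among 15 HIF targets outside glycolysis 12 fell and 1 rose (median -0.58). BNIP3, which marks mitochondria for autophagy, fell by 1.05 ± 0.04, PDK1, which closes pyruvate entry into mitochondria, by 1.16 ± 0.06, and VEGFA by 0.91 ± 0.04. Glycolytic enzymes split: the brain-type aldolase ALDOC fell by 1.62 ± 0.06 and the glucose carrier SLC2A3 by 1.28 ± 0.05, whereas pyruvate kinase PKM and PGAM1 each rose by 0.44 and enolase ENO1 by 0.27. The difference from the mean of the other lines was negative for 23 of the 37 genes and positive for 7. The fall was not particular to A375. The list median was 0.02, -0.31 and 0.02 in Cal27, Fadu and Hth83, and 29 of 37 genes fell in Fadu. For the HIF targets outside glycolysis the medians were 0.06, -0.85 and -0.41.

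The CA9 promoter is shown because its mRNA fell most; capitals mark the hypoxia response core ACGTG, which lies on the other strand, 18 bases before the gene start.
CA9 (chr9:35673884-35673940, plus strand): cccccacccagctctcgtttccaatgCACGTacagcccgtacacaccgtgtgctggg
This core is short and was in 19 of 33 list genes (57.6%) against 24.9% of all genes in the promoter table. The core was in 12 of 20 members that fell, 3 of 8 that rose and 4 of 5 that did not pass the test. It and the E-box below were added to the search after expression values had been seen.

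TXNIP, an arrestin that restrains glucose uptake and inhibits thioredoxin, had 17, 19.7 and 15.6 CPM in plasma-treated libraries, against 191, 195 and 210 CPM in untreated libraries. The plasma-treated libraries were all below the lowest untreated one by a wide margin (-3.51 ± 0.06, adjusted p = 3.33e-24). In length-scaled units this was 56.5 ± 7.29 TPM after plasma and 684 ± 30.1 TPM untreated (SD, n = 3 each). Its relative ARRDC4 had 8.3, 8.02 and 8.42 CPM against 18.2, 16.9 and 19.8 CPM (-1.15 ± 0.09), ARRDC3 fell by 1.40 ± 0.06, and of 6 arrestins 5 fell and 0 rose in edgeR's test and in DESeq2 (1 was higher at an unadjusted p of 0.05). TXNIP changed by 4.14 in Fadu, 1.51 in Hth83 and -0.28 in Cal27, and its difference between A375 and the mean of the others, -5.32 ± 0.09 (adjusted p = 4.5e-27), was the largest in size among genes of at least 10 CPM in all 4 lines. The exact E-box letters CACGTG were in the ARRDC4 promoter and in no window of TXNIP or ARRDC3. The glucose-sensing factors MondoA and ChREBP also read imperfect E-boxes. Those were not searched, so a window without CACGTG may still hold a site for these factors.

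NRF2 targets rose in part. Of 35 tested 22 rose and 5 fell, 9 with library size alone (median 0.30). GCLM, the modifier subunit of the rate-limiting enzyme of glutathione synthesis, had 73.1, 57.5 and 60.8 CPM in plasma-treated libraries, against 27.8, 26.8 and 26.2 CPM in untreated libraries (1.24 ± 0.07, adjusted p = 2.79e-14). HMOX1, haem oxygenase, had 16.4, 12.6 and 12.4 CPM against 6.1, 6.32 and 7.17 CPM (1.08 ± 0.12). SQSTM1, the autophagy receptor p62 that binds KEAP1, had 512, 398 and 410 CPM against 208, 221 and 223 CPM (1.02 ± 0.12, adjusted p = 0.00159). In all 3 genes plasma replicate 1 was the highest library. The 4 thioredoxin genes all rose, with the peroxiredoxin PRDX1 at 0.80 ± 0.04 and the reductase TXNRD1 at 0.66 ± 0.04, and NQO1, a quinone reductase, rose by 0.72 ± 0.04. SLC7A11, described above with the ATF4 targets, fell. Among 27 list genes with a RefSeq promoter, 10 (37%) held the antioxidant response core TGACNNNGC, against 16.1% of all genes. It was in 8 of 17 that rose, 0 of 4 that fell and 2 of 6 that did not pass.

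Iron uptake stood out. TFRC, the transferrin receptor, had 389, 331 and 356 CPM in plasma-treated libraries, against 73.8, 72.1 and 66.9 CPM in untreated libraries, with no library of one group near the other (2.33 ± 0.05, adjusted p = 8.46e-21). The ferritin chains rose as well, FTH1 with 326, 270 and 283 CPM against 183, 187 and 178 CPM (0.68 ± 0.06) and FTL by 0.30 ± 0.04. Iron regulatory proteins are known to stabilise TFRC mRNA and to block ferritin translation when iron is scarce. Of genes tied to ferroptosis, the ubiquinone reductase AIFM2 (FSP1) rose by 0.72 ± 0.08. GPX4, which reduces lipid hydroperoxides, fell by 0.26 ± 0.05 and ACSL4, which loads membranes with polyunsaturated lipids, by 0.28 ± 0.04. Of 22 antioxidant enzymes 11 rose and 3 fell (5 with library size alone); superoxide dismutase SOD1 rose by 0.44 ± 0.04, and SOD2 (49.1, 45.2 and 43.2 CPM against 49.1, 45.6 and 47.1 CPM) and catalase (CAT) did not pass the test.

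**Figure D4:**
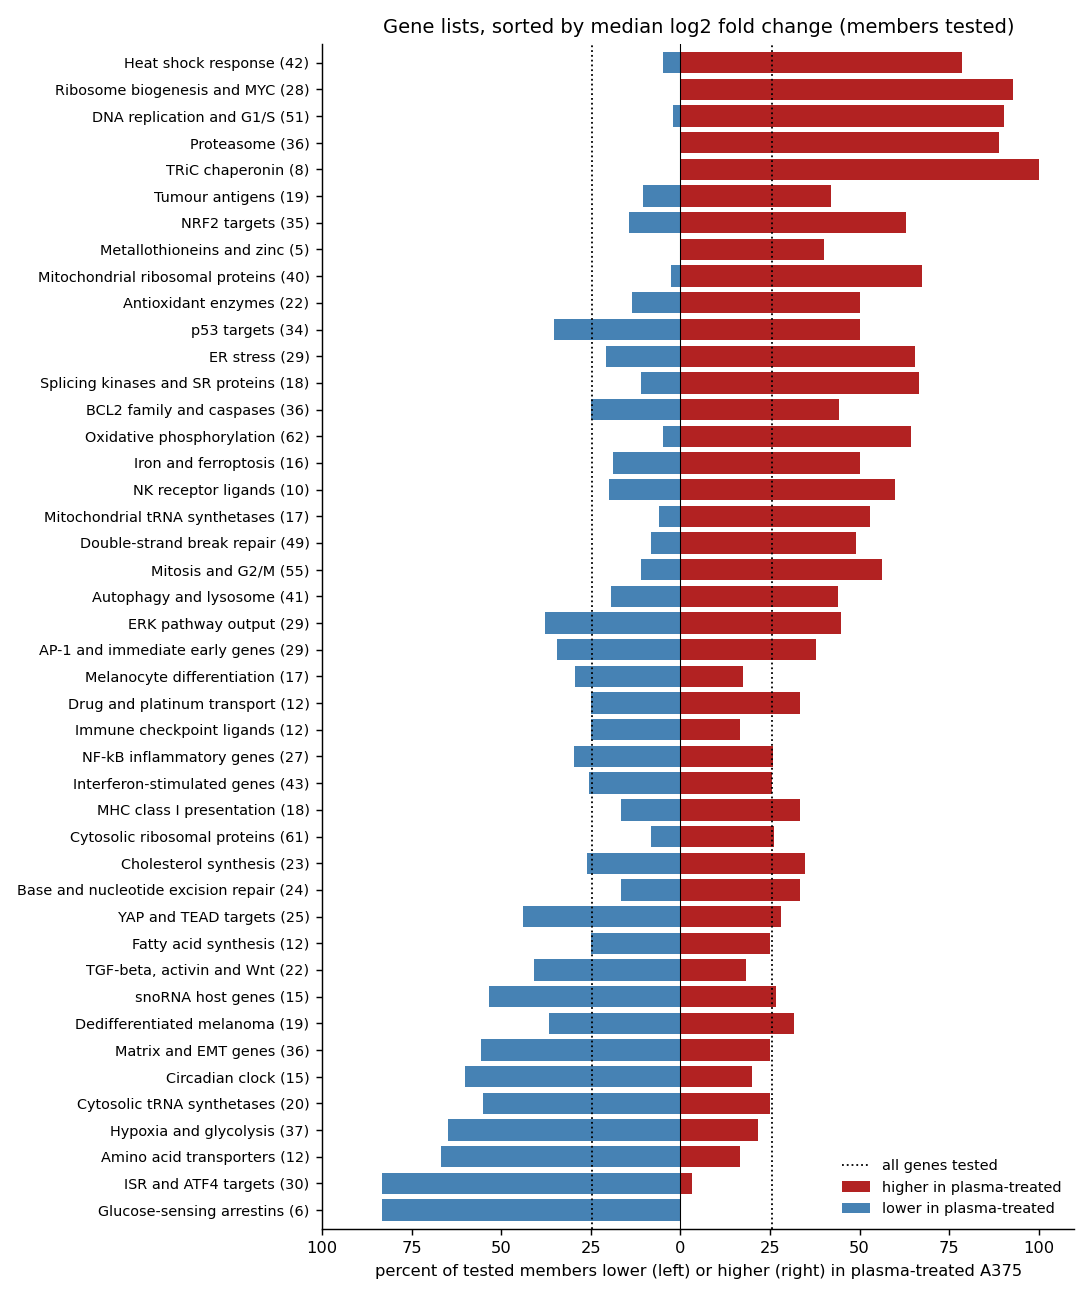
For each gene list, the percent of tested members that were lower (left) or higher (right) in plasma-treated A375, sorted by the median log2 fold change, with the number tested in brackets. Dotted lines mark the shares over all genes, 25.7% higher and 24.8% lower. Over protein-coding genes alone, not drawn, the shares were 33.7% and 24.3%. TRiC and ribosome biogenesis bars reach far right and the ATF4-linked and arrestin bars far left.

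Genes of the G1/S transition rose almost without exception. Of 51 tested 46 rose and 1 fell, the licensing factor CDT1 (by 0.18), with a median of 0.40; 35 rose on the TPM scale. PCNA, the replication clamp, had 248, 221 and 237 CPM in plasma-treated libraries, against 116, 117 and 111 CPM in untreated libraries (1.03 ± 0.04, adjusted p = 1.63e-18). CDC25A, the phosphatase that activates CDK2, had 77.9, 74.5 and 73.2 CPM against 37.9, 36.6 and 35.1 CPM (1.04 ± 0.05), and cyclin CCNE2 rose by 1.05 ± 0.10. FAM111B, a protease linked to replication forks, had 27.3, 27.3 and 29.5 CPM against 10.2, 9.67 and 9.91 CPM (1.49 ± 0.08). It was among the 12 largest rises of called genes with a symbol, at least 10 CPM in 1 group and non-overlapping groups. Of 55 mitotic genes 31 rose and 6 fell, but 14 and 7 on the TPM scale and 33 and 3 without plasma replicate 2, with a median of 0.14. The cyclin CCNB1 rose by 0.25 ± 0.04, whereas topoisomerase TOP2A fell by 0.19 ± 0.03. Of 49 double-strand break repair genes 24 rose and 4 fell; 12 and 3 did on the TPM scale, 10 fell with library size alone, 1 fell without plasma replicate 3 and 2 without untreated replicate 2 or 3. Of 24 excision repair genes 8 rose (5 on the TPM scale) and 4 fell. These were 33.3% and 16.7%, beside 25.7% and 24.8% over all genes tested and 33.7% and 24.3% over protein-coding genes.

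The p53 targets went both ways. Of 34 tested 17 rose (50%) and 12 fell (35.3%), or 9 and 12 on the TPM scale. Over all genes tested 25.7% rose and 24.8% fell, and over protein-coding genes 33.7% and 24.3%. CDKN1A, the CDK inhibitor p21, had 175, 138 and 130 CPM in plasma-treated libraries, against 81.2, 74.9 and 78 CPM in untreated libraries (0.91 ± 0.13, adjusted p = 0.00329), and MDM2, the ligase that degrades p53, had 145, 130 and 129 CPM against 87.4, 82.5 and 82.1 CPM (0.68 ± 0.05). The death genes PMAIP1 (NOXA) and BBC3 (PUMA) fell, by 0.83 ± 0.06 and 0.82 ± 0.10; both are also known targets of the ATF4 and CHOP arm. Of 36 BCL2 family and caspase genes 16 rose (44.4%) and 9 fell (25%), with 5 falling without untreated replicate 1. Cytochrome c (CYCS) rose by 0.75 ± 0.04 and the pore-former BAX by 0.61 ± 0.05. No count of living or dead cells was analysed here.

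Immune genes went in both directions. Of 43 interferon-stimulated genes 11 rose and 11 fell (7 and 10 on the TPM scale, 11 and 7 without untreated replicate 1), shares of members close to those over all genes, with a median of 0.03. Each share was 25.6%, beside 33.7% higher and 24.3% lower over protein-coding genes. IFIT3, an RNA-binding antiviral protein, had 16.8, 16.8 and 14.9 CPM in plasma-treated libraries, against 11.1, 11.2 and 9.67 CPM in untreated libraries (0.59 ± 0.09, adjusted p = 3.8e-06). The tether BST2 went down, with 1.27, 1.75 and 1.86 CPM against 4.35, 4.85 and 4.74 CPM (-1.49 ± 0.19), while ISG15 (3.81, 4.33 and 4.24 CPM against 3.72, 3.14 and 2.8 CPM) did not pass. The list median was -0.81, -0.90 and 0.31 in Cal27, Fadu and Hth83, and the difference of A375 from their mean was positive for 23 of 51 genes and negative for 3. The interferon-stimulated response core GAAANNGAA was in 25 of 38 list genes (65.8%) and 9.86% of all genes. It was in 7 of 9 that rose, 6 of 7 that fell and 8 of 16 that did not pass.

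Of 18 MHC class I presentation genes 6 rose and 3 fell, which turned to 3 and 5 with library size alone and on the TPM scale, so no direction holds for the group. In the reported fit the shares were 33.3% and 16.7%. Over all genes tested they were 25.7% and 24.8%, and over protein-coding genes 33.7% and 24.3%. The light chain B2M had 511, 507 and 511 CPM against 470, 470 and 460 CPM, a rise of 0.13 ± 0.03 whose call was lost under both of those settings. The checkpoint ligand CD274 (PD-L1) had 4.19, 3.29 and 3.88 CPM against 3.23, 3.17 and 3.34 CPM, overlapping groups that did not pass (adjusted p = 0.282), and of 12 checkpoint ligands 2 rose (1 on the TPM scale or without untreated replicate 1) and 3 fell, among them CD47, the signal against phagocytosis, by 0.16 ± 0.04. Checkpoint ligands higher and lower were thus 16.7% and 25%, the latter near the share over all genes. Of 10 ligands of activating NK receptors 6 rose and 2 fell (2 and 2 on the TPM scale), with the NKG2D ligand ULBP3 at 9.81, 9.12 and 10.6 CPM against 6.59, 5.83 and 6.2 CPM (0.66 ± 0.11). Of 27 NF-kB linked inflammatory genes 7 rose and 8 fell (5 without plasma replicate 3), shares near those over all genes. Members higher and lower made up 25.9% and 29.6%, beside 33.7% and 24.3% over protein-coding genes. The feedback inhibitor TNFAIP3 (A20) rose by 0.66 ± 0.08 and the adhesion molecule ICAM1 fell by 0.28 ± 0.05.

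Signalling genes included several of the largest changes. WNT9A, a Wnt ligand, had 25, 16.3 and 15 CPM in plasma-treated libraries, against 3.23, 3.84 and 4 CPM in untreated libraries (2.35 ± 0.20, adjusted p = 1.3e-06), and the Wnt inhibitor DKK1 had 15.4, 12.7 and 13.4 CPM against 3.38, 3.63 and 4.17 CPM (1.90 ± 0.12). NGFR, the nerve growth factor receptor of neural crest-like melanoma cells, had 21, 14.1 and 14.9 CPM against 4.94, 5.13 and 3.94 CPM (1.82 ± 0.14, adjusted p = 4.33e-11). ENC1, an actin-binding protein, had 94.6, 66.1 and 69.4 CPM against 16, 17.1 and 17 CPM (2.20 ± 0.17). In WNT9A, NGFR and ENC1 plasma replicate 1 was the highest library by a clear margin. Each kept its call in every other setting, including the one without this library. The lowest log2 fold changes over those settings were 1.75, 1.48 and 2.03. INHBA, which forms activin A, had 350, 442 and 414 CPM against 973, 973 and 985 CPM (-1.28 ± 0.09, adjusted p = 4.27e-05). Of 22 TGF-beta, activin and Wnt genes 9 fell and 4 rose (2 on the TPM scale; median -0.06).

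Early genes were mixed: of 29 AP-1 and immediate early genes 11 rose (37.9%) and 10 fell (34.5%). Over all genes tested 25.7% rose and 24.8% fell, and over protein-coding genes 33.7% and 24.3%. JUN rose by 0.92 ± 0.10 and FOSL1, a Fos protein held high by ERK in melanoma, by 0.86 ± 0.11. EGR1 had 81.5, 86.7 and 90.2 CPM against 230, 212 and 193 CPM (-1.30 ± 0.05, adjusted p = 9.45e-16), and FOSB had 53, 62.7 and 65.6 CPM against 25.4, 27 and 14.5 CPM (1.43 ± 0.26), a call that was lost with the replicate number as a block. Of 29 ERK output genes 13 rose (44.8%) and 11 fell (37.9%), or 8 and 11 on the TPM scale. The feedback inhibitors SPRY2 and SPRY4 were each lower by 0.38. Of 25 YAP and TEAD targets 7 rose (28%) and 11 fell (44%), or 3 and 9 on the TPM scale. CCN2 (CTGF) rose by 0.95 ± 0.10 and CCN1 (CYR61) did not pass the test.

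Most structural matrix genes fell. Of 15 structural matrix genes tested 12 fell and 1 rose (median -0.39), and of all 36 matrix and mesenchymal genes 20 fell and 9 rose (5 on the TPM scale). The laminin chain LAMB1 had 855, 946 and 892 CPM in plasma-treated libraries, against 1313, 1325 and 1337 CPM in untreated libraries (-0.56 ± 0.03, adjusted p = 2.05e-14), COL6A2 fell by 0.77 ± 0.04, COL5A2 by 0.67 ± 0.04 and fibronectin (FN1) by 0.49 ± 0.04. THBS1, a matricellular inhibitor of vessel growth, was the member that rose, with 502, 392 and 416 CPM against 200, 200 and 195 CPM (1.14 ± 0.10). The mesenchymal factors SNAI1, SNAI2 and ZEB1 fell by 0.71, 0.49 and 0.43. Of 9 protease and inhibitor genes 6 rose and 1 fell, led by TIMP3, an inhibitor of metalloproteinases, at 2264, 1912 and 1949 CPM against 1322, 1354 and 1314 CPM (0.62 ± 0.05).

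Genes that build ribosomes rose while ribosomal protein genes did not move together. Of 28 ribosome biogenesis genes 26 rose in edgeR's test (20 to 26 over all settings), and 0 fell in it, at an unadjusted p of 0.05 or in any other setting, DESeq2 among them, with a median of 0.44; NOP56, a core protein of nucleolar RNPs, had 295, 279 and 292 CPM against 168, 161 and 162 CPM (0.82 ± 0.04, adjusted p = 2.48e-17). Of 61 cytosolic ribosomal protein genes 16 rose and 5 fell, but 3 rose and 22 fell with library size alone and 1 rose and 19 fell on the TPM scale, so the direction flips with scaling; without untreated replicate 2 only 8 rose, without untreated replicate 3 only 2 fell, and the median was 0.02. Of 40 mitochondrial ribosomal proteins 27 rose and 1 fell (median 0.25), and of 62 nuclear-encoded respiratory chain genes 40 rose and 3 fell (21 and 5 on the TPM scale; median 0.19). Of 18 splicing kinases and SR proteins 12 rose and 2 fell (1 without plasma replicate 1): SRSF2 had 245, 225 and 245 CPM against 123, 131 and 128 CPM (0.91 ± 0.04), and the kinase CLK1 (43.8, 41.5 and 47.9 CPM against 40.3, 40.1 and 42.7 CPM) did not pass.

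Melanoma state genes moved in no single direction. Of 17 melanocyte differentiation genes tested 3 rose and 5 fell (1 and 3 on the TPM scale). These were 17.6% and 29.4% of members, beside 25.7% higher and 24.8% lower over all genes tested and 33.7% and 24.3% over protein-coding genes. TFAP2A, a factor that works with MITF, had 8.99, 8.27 and 8.8 CPM against 13.5, 13.8 and 12.4 CPM (-0.61 ± 0.10). Of 19 dedifferentiated melanoma genes 6 rose (31.6%), NGFR among them, and 7 fell (36.8%), AXL among them (by 0.22 ± 0.04). Of 19 tumour antigens 8 rose and 2 fell (4 on the TPM scale, and 1 without plasma replicate 1 or untreated replicate 2 or 3); MAGEA3, one of a family of near-identical genes whose reads cannot be assigned with certainty, had 164, 140 and 150 CPM against 99.5, 103 and 105 CPM (0.56 ± 0.05), and the proteoglycan CSPG4 fell by 0.47.

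Other genes with the largest changes belonged to no list. SPTBN5, a spectrin chain, rose by 1.62 ± 0.13 and the transcript MIR22HG by 1.59 ± 0.13. BEST1, a calcium-activated chloride channel, had 1.89, 2.05 and 2.12 CPM against 16.1, 11.8 and 14.5 CPM (-2.80 ± 0.14), and the long non-coding RNA LUCAT1 had 11.3, 13.9 and 11.1 CPM against 54, 55.3 and 53.3 CPM (-2.16 ± 0.07). The antisense transcript TSPEAR-AS1 fell by 2.15 ± 0.12. EIF3CL, a near-identical copy of EIF3C, had 7.99, 10.5 and 8.54 CPM against 63.6, 18.8 and 34.8 CPM; its call (-2.13 ± 0.56, adjusted p = 0.0344) was lost in 7 other settings, including without plasma replicate 1, 2 or 3 or untreated replicate 3 (-2.07, -2.26, -2.09 and -2.20).

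Across lines, 14240 genes were tested in all 4, and 376 were called in the same direction in every line, 192 higher and 184 lower. In 127 genes A375 was called in the direction opposite to the other 3 lines, 81 of them higher in A375. NGFR had the largest difference of these among genes of at least 10 CPM in 1 A375 group. It changed by 1.82 in A375 against -0.41, -1.44 and -0.34 in Cal27, Fadu and Hth83 (difference 2.52 ± 0.15, adjusted p = 7.31e-19). NGFR was below 10 CPM in at least 1 of the other lines, so its changes there rest on fewer reads. Among genes of at least 10 CPM in all 4 lines, the 6 largest positive differences were those of HSPA5 (2.20), SDF2L1 (2.08), TFRC (1.94), the EGFR ligand AREG (1.89), MIR22HG (1.87) and CRELD2, an ER protein (1.72). HSPA5, SDF2L1 and CRELD2 were called higher in A375 and lower in each other line. The 6 largest negative ones were those of TXNIP (-5.32), INHBA (-2.59), the antisense transcript GABPB1-AS1 (-2.13), the osteogenic factor RUNX2 (-1.91), CDC42EP1, a CDC42 effector (-1.68), and NT5E, the ectoenzyme CD73 (-1.62). INHBA and NT5E rest largely on Fadu, where they rose by 4.58 and 3.46 on the log2 scale, against -1.28 and -0.41 in A375; without Fadu in the mean their differences were -0.94 and -0.48, still called.

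**Figure D5:**
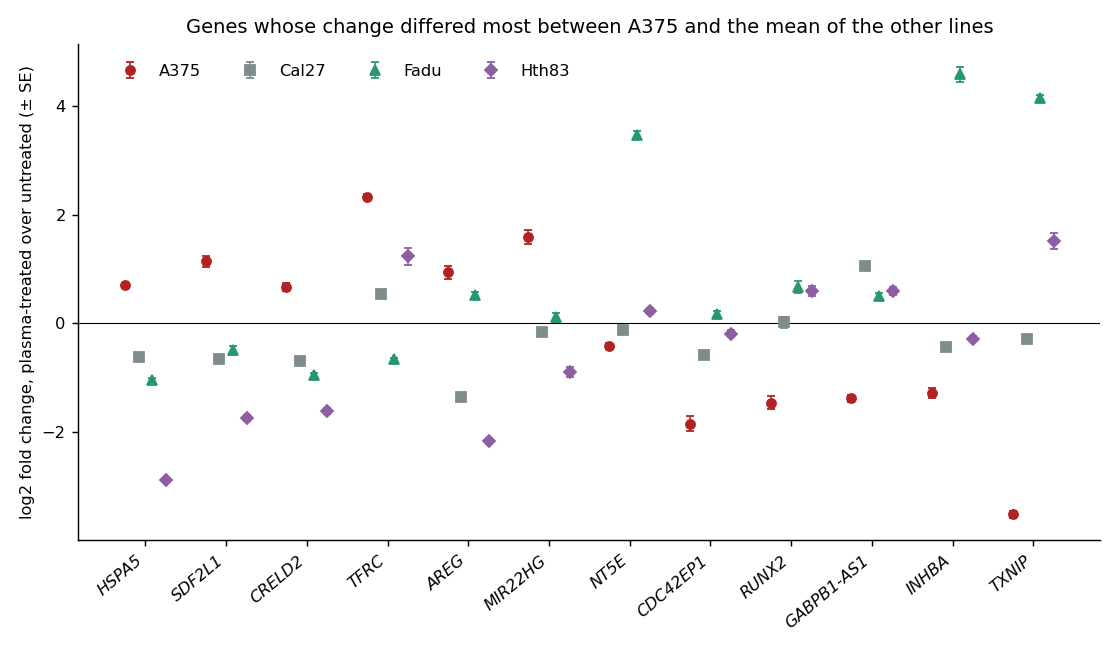
Log2 fold change of plasma-treated over untreated cells, with SE, in A375, Cal27, Fadu and Hth83 for the 12 genes whose change differed most between A375 and the mean of the other lines. HSPA5 stands at 0.71 in A375 and at -0.62, -1.04 and -2.88 in the others, and TXNIP at -3.51 in A375, -0.28 in Cal27, 4.14 in Fadu and 1.51 in Hth83.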

How the data were processed

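Per the labels' protocols, Trizol was used for RNA extraction, a SMARTER mRNA-Seq kit for library preparation and a HiSeq3000 for sequencing. The submitters' processing notes name HISAT2 and the build GRCh38. The aligner's version, counting tool, annotation release and use of strand are not stated there or elsewhere in the sources. The authors deposited raw counts per gene and TPM (transcript abundance per length, scaled to a fixed sum) for 61533 genes; TPM values deposited by the authors equal counts divided by a gene length, scaled per library, to within 2.8e-13. Total counts were 29.3 to 49.5, in units of 1e6, per A375 library. Counts come from reads and not from molecular identifiers, so they carry amplification noise. Gene symbols came from RefSeq and GENCODE tables (61369 and a further 149 of the genes).

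Plasma-treated and untreated A375 libraries, grouped by the labels, were compared with edgeR 4.0.16 in R 4.3.3 (TMM scaling, a robust quasi-likelihood fit, at least 10 counts in enough libraries and 15 in all, Benjamini-Hochberg adjustment, threshold 0.05). The difference between lines was a contrast of A375 against the mean of Cal27, Fadu and Hth83 in 1 fit of 24 libraries. CPM are counts scaled to 1e6 per TMM-adjusted library, and fold changes are on the log2 scale. DESeq2 1.42.0, limma 3.58.1 on log2(TPM + 1) or log2(TPM + 0.1), other scalings and filters, a gene length correction and leaving out each library were alternatives. The scripts were tested on simulated data. There edgeR recovered 89% of 2-fold and 45% of 1.2-fold changes, and limma on log2(TPM + 1) 79.8% and 8.5%. The contrast between lines recovered 74% and 29%. A small change can therefore be missed, most of all on the TPM scale. The libraries' replicate numbers did not pair the samples. Named genes were the 12 largest rises and 12 largest falls with at least 10 CPM in 1 group and groups that do not overlap, up to 4 called members a list and 2 a role by adjusted p, the 6 largest differences each way between lines, and a panel of 20. Other list members named in the text, and NGFR and CYP1A1 among genes opposite to the other lines, were chosen after their values were seen. The members, the 49 lists (1272 of 1275 symbols found) and the panel were chosen with earlier results of these data known.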

Additional observations from a re-analysis of the deposited data

Results flagged for a closer look

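The change in 12 genes differed between A375 and the mean of the other lines, by a test of the difference itself (edgeR, 24 libraries); these were the 6 largest in each direction by the rule for named genes. Each value is the A375 change minus that mean, on the log2 scale. The positive ones were HSPA5 (2.20 ± 0.04, adjusted p = 1.61e-39), SDF2L1 (2.08 ± 0.08, adjusted p = 2.34e-25), TFRC (1.94 ± 0.11, adjusted p = 3.21e-10), AREG (1.89 ± 0.09, adjusted p = 9.34e-21), MIR22HG (1.87 ± 0.13, adjusted p = 5.58e-17) and CRELD2 (1.72 ± 0.07, adjusted p = 5.22e-26). TFRC rose in Cal27 (0.54) and Hth83 (1.23) as well, and fell in Fadu (-0.66). AREG fell in Cal27 (-1.35) and Hth83 (-2.17) and rose in Fadu (0.53). MIR22HG was not called in Fadu (0.11).

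The negative ones were TXNIP (-5.32 ± 0.09, adjusted p = 4.5e-27), INHBA (-2.59 ± 0.10, adjusted p = 1.39e-14), GABPB1-AS1 (-2.13 ± 0.09, adjusted p = 2.04e-17), RUNX2 (-1.91 ± 0.13, adjusted p = 1.99e-17), CDC42EP1 (-1.68 ± 0.10, adjusted p = 9.11e-19) and NT5E (-1.62 ± 0.06, adjusted p = 7.73e-24). GABPB1-AS1 had 47.1, 59.8 and 53.1 CPM in plasma-treated A375, against 145, 140 and 133 CPM in untreated A375, and rose in Cal27, Fadu and Hth83 (1.06, 0.50 and 0.59). RUNX2 had 4.53, 4.57 and 4.47 CPM against 11, 12.7 and 14 CPM in A375. CDC42EP1 had 2.57, 3.26 and 2.59 CPM against 11, 9.55 and 9.64 CPM. All 12 kept their direction and call under each alternative of this comparison.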

How the results depend on the processing

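With 9900 genes called in A375, DESeq2 called 9367, RLE size factors 9899, library size alone 9907, a minimum of 1 CPM in 3 libraries 9375, no filter 9659, no robust dispersion 9874 and limma on log2(TPM + 0.1) 6761. Limma on log2(TPM + 1) called 6868, and without a filter 5772. Genes called higher were 5044 in the reported fit and 2808, 2819 and 2339 with limma on log2(TPM + 0.1), on log2(TPM + 1) and on log2(TPM + 1) without a filter. A fold minimum of 2 left 1385 genes, 304 higher and 1081 lower. A minimum of 1 CPM reduced these 1385 to 792, and limma on log2(TPM + 1) gave 749, or 612 without a filter. Leaving out 1 library gave 8739 to 9676 called genes, 4569 to 4977 higher and 4170 to 4699 lower. For the difference between lines (7172 called), library size alone gave 2168 positive calls against 3687, leaving out 1 library gave 6294 to 7315 called, 3281 to 3964 positive and 2771 to 3542 negative, and leaving 1 line out of the mean gave 6933 to 8056. Of 265 called named genes 238 kept their call in every setting, 27 lost it in at least 1 and 0 reversed. Of 49 list medians 24 moved by at least 0.1 somewhere and 13 changed sign in some setting, 10 of them under 0.1 in size. The others were those of ERK output (0.10, at lowest -0.01), dedifferentiated melanoma (-0.15, at highest 0.04) and leukocyte markers (-0.59, at highest 0.71). The cause of these changes was not tested.

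Both groups carry replicate numbers 1 to 3, but same-numbered libraries deviated from their group means with correlations of only 0.00401, 0.0214 and 0.0355, so the numbers were not taken as pairs. With the number as a replicate block 9946 genes were called in place of 9900, and 7026 in place of 7172 for the difference between lines. Differences of genes near 1 CPM rest on few reads and are the least certain.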

Other observations

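Called non-coding RNAs were mostly lower after plasma, though most did not pass the test. Of 1300 lincRNAs tested 64 rose and 450 fell (4.92% and 34.6%), with a median log2 fold change of -0.41. Of 1442 antisense genes 69 rose and 409 fell (4.79% and 28.4%; median -0.30), beside 25.7% higher and 24.8% lower over all genes. lincRNAs took 0.644 to 0.699% of counts in plasma-treated libraries and 0.892 to 0.93% in untreated libraries, and protein-coding genes 97.3 to 97.5% and 96.8 to 96.9%. The 858 processed pseudogenes were balanced, with 91 higher and 91 lower. Among protein-coding genes the median fell with length, over 5 equal classes from shortest to longest 0.11, 0.10, 0.07, 0.02 and -0.07; the longest class had 563 higher and 947 lower, the shortest 1090 higher and 521 lower. The part of length in each list's counts was not tested, and removing the trend with length changed the sign of 2 of the 49 list medians, those of the YAP and dedifferentiated melanoma lists.

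The circadian clock genes leaned down, with 9 of 15 lower and 3 higher. The nuclear receptor RORA had 5.28, 5.86 and 7.01 CPM in plasma-treated libraries, against 12.1, 13.5 and 13.1 CPM in untreated libraries (-1.08 ± 0.11, adjusted p = 2.14e-09), and the repressor BHLHE40 had 55.5, 55.2 and 58 CPM against 110, 117 and 106 CPM (-0.98 ± 0.05, adjusted p = 1.08e-16). The output factor DBP fell by 0.73 ± 0.13, whereas BMAL1 rose by 0.45 ± 0.07 and CRY1 by 0.42 ± 0.07. PER2 had 6.35, 4.14 and 3.77 CPM against 5.45, 5.46 and 5.47 CPM and did not pass the test.

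Of 15 snoRNA host genes 8 fell and 4 rose, but 4 fell without untreated replicate 1, 5 without untreated replicate 3, and 2 rose on the TPM scale, with SNHG8 lower by 0.77 ± 0.06 and SNHG15 higher by 0.43 ± 0.08. Of 12 drug and platinum transporters 4 rose (2 on the TPM scale) and 3 fell. These were 33.3% and 25%, beside 25.7% and 24.8% over all genes tested and 33.7% and 24.3% over protein-coding genes. The efflux pump ABCG2 had 5.9, 5.12 and 5.55 CPM against 3.23, 2.65 and 2.94 CPM (0.90 ± 0.15). The copper and cisplatin importer SLC31A1 fell by 0.52 ± 0.05. Of 41 autophagy and lysosome genes 18 rose and 8 fell, but 13 and 14 with library size alone and 10 and 7 on the TPM scale. Of 23 cholesterol synthesis genes 8 rose (34.8%) and 6 fell (26.1%), but 8 and 10 with library size alone, 5 and 6 on the TPM scale, and 3 fell without untreated replicate 1 or 3. Of 12 fatty acid synthesis genes 3 rose and 3 fell, 2 and 6 with library size alone and 1 and 2 on the TPM scale. In the reported fit these were 25% each way, near the shares over all genes tested. Over protein-coding genes 33.7% were higher and 24.3% lower. Of 10 metallothionein and zinc genes 5 could be tested and 2 rose; MT2A, whose copies are near-identical, had 215, 223 and 212 CPM against 177, 144 and 214 CPM and did not pass.

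CYP1A1, an oxidase induced by the aryl hydrocarbon receptor, had 16.2, 15.6 and 13.6 CPM in plasma-treated A375, against 8.44, 9.21 and 8.74 CPM in untreated A375 (0.78 ± 0.10, adjusted p = 7.46e-08). It changed by -0.61, -0.75 and -0.68 in Cal27, Fadu and Hth83, and the difference of A375 from their mean was 1.43 on the log2 scale.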
